A study of Mus musculus with 11 samples.

Results

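The 9 genes described here are *Neurog1*, *Neurod1*, *Neurod4*, *Pou4f1*, *Elavl3*, *Elavl4*, *Tubb3*, *Dcx* and *Stmn2*, neuronal differentiation genes of cranial neurons and ganglia. These genes mark differentiating neurons and are not particular to the ganglia of the face. Which neurons in the explants their RNA came from was not tested. They were chosen by name, and each symbol was matched to its Ensembl identifier, which gave 9 of the 38561 genes counted. All 9 passed the filter on low counts and were among the 17317 genes tested. RNA was sequenced from explants of mouse facial processes, that is, the mandibular and maxillary parts of the branchial arch together with the nasal processes, taken at embryonic day 10.5 from mice of mixed strain. The question was how loss of WNT9b, a secreted WNT ligand, and of RSPO2, a secreted R-spondin that enhances WNT signaling, alters gene expression in these tissues. The groups were wild type (wt, 2 libraries), *Rspo2* mutants (Rspo2KO, 3 libraries), *Wnt9b* mutants (Wnt9bKO, 3 libraries) and mutants of both genes (DKO, 3 libraries). The mutations were inherited alleles and not driven by a Cre, no group received a treatment, and the labels do not say which *Rspo2* null allele was sequenced. Nothing in the labels ties a library to an embryo, so p-values measure the spread between these samples, which may be partly technical.

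Cranial sensory neurons arise from neurogenic placodes and from the neural crest. Basic helix-loop-helix (bHLH) factors act in sequence in them, with *Neurog1* and *Neurog2* committing precursors to a neuronal fate and *Neurod1* and *Neurod4* acting during differentiation. In the mouse, *Neurog1* is known for the trigeminal and other proximal ganglia and *Neurog2* for the epibranchial ganglia. Young neurons then turn on *Pou4f1*, a POU homeodomain factor of sensory neurons, RNA-binding proteins of the Hu family such as *Elavl3* and *Elavl4*, and proteins of the neuronal cytoskeleton such as *Tubb3*, *Dcx* and *Stmn2*.

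The promoters of the bHLH genes and of *Tubb3*, the member with the highest level, are shown. Each run is the 250 bases before the RefSeq transcription start in GRCm38.p6, with capitals marking CANNTG (the E-box, the letters bHLH proteins bind) and TATAA, both searched on both strands. *Neurog1* lies on chromosome 13, minus strand, and the window is chr13:56252181-56252430. *Neurod1* lies on chromosome 2, minus strand, at chr2:79456637-79456886. *Neurod4* lies on chromosome 10, minus strand, at chr10:130280255-130280504. *Tubb3* lies on chromosome 8, plus strand, at chr8:123411303-123411552.
Neurog1: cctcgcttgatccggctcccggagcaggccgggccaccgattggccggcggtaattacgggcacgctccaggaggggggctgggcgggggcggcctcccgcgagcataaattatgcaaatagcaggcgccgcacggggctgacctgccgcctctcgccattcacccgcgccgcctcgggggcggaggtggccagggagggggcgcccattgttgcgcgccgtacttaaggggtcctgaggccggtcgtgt
Neurod1: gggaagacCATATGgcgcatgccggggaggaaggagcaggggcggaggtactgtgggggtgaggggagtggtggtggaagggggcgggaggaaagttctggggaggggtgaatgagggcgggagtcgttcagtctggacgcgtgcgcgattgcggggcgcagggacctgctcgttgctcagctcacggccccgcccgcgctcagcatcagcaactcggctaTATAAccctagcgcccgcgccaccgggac
Neurod4: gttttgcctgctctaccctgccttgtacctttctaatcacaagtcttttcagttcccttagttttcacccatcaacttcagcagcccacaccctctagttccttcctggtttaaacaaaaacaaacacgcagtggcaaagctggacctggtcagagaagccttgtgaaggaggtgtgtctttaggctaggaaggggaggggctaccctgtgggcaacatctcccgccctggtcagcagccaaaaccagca
Tubb3: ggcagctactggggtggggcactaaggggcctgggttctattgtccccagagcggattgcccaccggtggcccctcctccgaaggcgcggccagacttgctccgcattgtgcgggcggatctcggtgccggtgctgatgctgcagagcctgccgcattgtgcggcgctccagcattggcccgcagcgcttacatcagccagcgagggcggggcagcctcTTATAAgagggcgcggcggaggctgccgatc

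The *Neurod1* window held 1 E-box, CATATG, starting 242 bases before the start, and TATAA starting 29 bases before it. The *Tubb3* window held TATAA starting 30 bases before the start, overlapped by the same letters on the other strand, and no E-box. Neither set of letters occurred in the *Neurog1* and *Neurod4* windows. Over 8 members with a window, 3 held CANNTG and 5 held TATAA, against 66.2% and 22.8% of all 32817 windows of this length, while *Stmn2* had no entry. The windows also differed in base composition. That of *Neurod4* had 2 CpG dinucleotides, against 29 in *Neurog1*, 22 in *Neurod1*, 21 in *Tubb3* and a median of 6 over all windows, and 29.1% of all windows had as few.

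Total counts per library ranged from 11136166 to 18017344. *Rspo2* was low in the libraries labelled Rspo2KO (4.74 to 6.59 CPM, that is, counts scaled to library size) against 14.8 and 16.0 in wt, but the library labelled Wnt9bKO 2 had 2.86 and the library labelled DKO 3 had 15.5, against their labels. *Wnt9b* counts were not lower in the libraries labelled Wnt9bKO or DKO. *Xist* was high in the wt and DKO libraries and at most 1.94 CPM in the Rspo2KO and Wnt9bKO libraries. *Ddx3y*, on the Y chromosome, was at 57.6 to 75.7 CPM in the Rspo2KO and Wnt9bKO libraries. It was at 1.07 and 0.121 CPM in wt and at 0.0587, 0.125 and 4.43 CPM in DKO. Sex and genotype therefore cannot be told apart in comparisons of a single mutant with wt, of DKO with a single mutant, or in the interaction. This leaves DKO against wt, in which wt 1 and DKO 3 held some *Ddx3y* RNA. All libraries were kept under their labels, and members' calls and directions against wt that change without Wnt9bKO 2 and DKO 3 are given both ways.

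Per kilobase of exon, *Tubb3* was by far the highest of the members, with a mean level of 161 CPM per kb over the 11 libraries. The others followed in the order *Elavl4* (11.7), *Stmn2* (8.98), *Dcx* (7.28), *Elavl3* (6.67), *Neurod4* (5.83), *Neurod1* (4.96), *Pou4f1* (3.62) and *Neurog1* (2.67 CPM per kb). The range of *Tubb3* over libraries did not overlap that of *Elavl4*, while every other neighbouring pair had overlapping ranges. Within libraries, *Elavl4* was above *Stmn2*, and *Stmn2* above *Dcx*, in 11 of 11. *Dcx* was above *Elavl3* in only 7, *Elavl3* above *Neurod4* in 6 and *Neurod4* above *Neurod1* in 7, so the order among these 4 was not fixed. Of genes expressed in motor neurons, *Mnx1* and *Chat* did not exceed 0.062 and 0.225 CPM in any library, while *Isl2* lay between 5.07 and 12.3 CPM, *Lhx4* between 0.532 and 3.64 CPM and *Lhx3* between 0.668 and 2.68 CPM. *Isl1*, a sensory and motor factor, lay between 28.4 and 61.1 CPM.

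**Figure D1:**
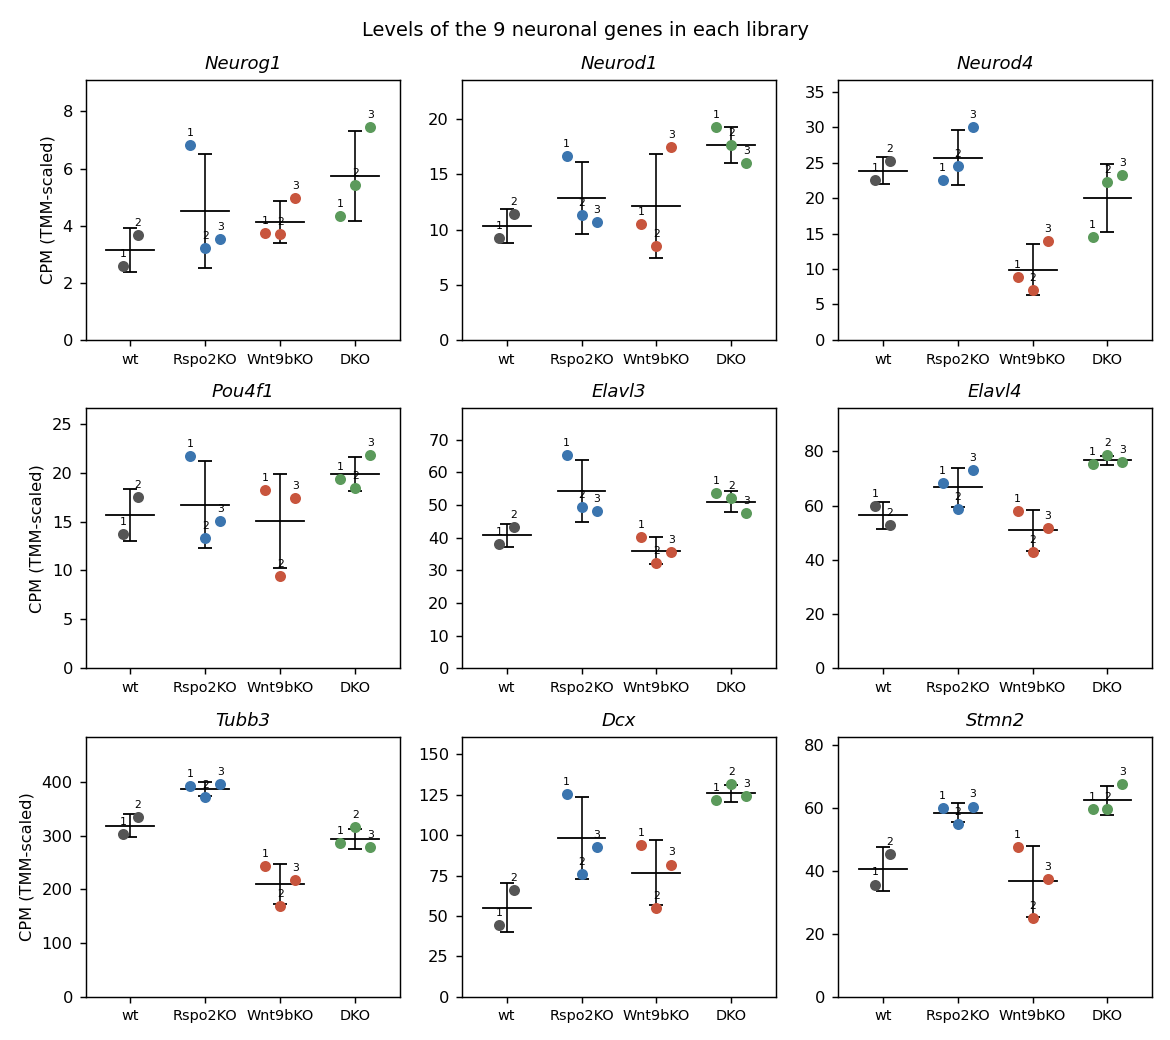
Level of each of the 9 genes in CPM (y axis, from 0) in each library, by genotype (x axis). Points are libraries numbered as in the labels, horizontal lines are means and bars are SD. Wnt9bKO 2 is the lowest library of its genotype in all 9 panels, and *Neurod4* and *Tubb3* are the 2 panels in which every Wnt9bKO library lies below wt.

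*Neurog1*, which commits precursors of the trigeminal ganglion to a neuronal fate, had the lowest level of the members. It was at 2.59 and 3.68 CPM in wt, at 6.81, 3.22 and 3.54 CPM in Rspo2KO, at 3.73, 3.70 and 4.98 CPM in Wnt9bKO and at 4.35, 5.42 and 7.47 CPM in DKO. All DKO libraries and, by a narrow margin, all Wnt9bKO libraries were above both wt libraries, and Rspo2KO overlapped wt. These levels rest on 29 to 123 counts per library. No difference from wt passed the test. The log2 fold change was 0.85 (SE 0.33, adjusted p = 0.07168) in DKO, 0.37 (SE 0.34, adjusted p = 0.4216) in Wnt9bKO and 0.49 (SE 0.34, adjusted p = 0.5949) in Rspo2KO, all by edgeR's quasi-likelihood test with Benjamini-Hochberg adjustment over all genes. The DKO value was past the threshold in 4 of 22 alternative settings. With an offset for GC content and gene length it was 1.004 and passed (adjusted p = 0.03986), as it did without Rspo2KO 1 (0.85, adjusted p = 0.02971). Without DKO 3, the library with the highest level, it was 0.61 (adjusted p = 0.2195). Without both Wnt9bKO 2 and DKO 3 it was likewise 0.61 (adjusted p = 0.2142).

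*Neurod1*, a differentiation factor that follows the neurogenins, was at 9.20 and 11.4 CPM in wt and at 19.3, 17.7 and 16.0 CPM in DKO, which did not overlap. It was at 16.6, 11.4 and 10.7 CPM in Rspo2KO and at 10.5, 8.52 and 17.5 CPM in Wnt9bKO, where 1 library of each genotype was high and the others lay at or near wt. *Neurod1* rose in DKO by 0.77 on the log2 scale (SE 0.27, adjusted p = 0.04303, edgeR), or 1.71-fold. The rise stood close to the threshold, since it was past it in 14 of 22 alternative settings and missed it when either wt library or any DKO library was left out (adjusted p from 0.05564 to 0.2669). In these bulk samples, a difference in the number of neurons and a difference in RNA per neuron cannot be told apart. *Neurod1* shares 201 exon bases with *Cerkl* on the same strand and 154 with the antisense RNA *Gm26755*, which had at most 29 and 9 counts, and whether the authors counted by strand is not given in the sources used here.

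*Neurod4*, another bHLH factor of differentiating neurons, had another pattern of levels. It was at 22.5 and 25.2 CPM in wt and at 22.5, 24.5 and 30.1 CPM in Rspo2KO, but at only 8.84, 6.97 and 13.9 CPM in Wnt9bKO. In DKO it was at 14.6, 22.2 and 23.3 CPM, with DKO 1 well below wt and the others at its level. The Wnt9bKO libraries overlapped neither wt, Rspo2KO nor DKO. *Neurod4* fell by 1.27 on the log2 scale in Wnt9bKO (SE 0.25, adjusted p = 0.00154, edgeR), or 2.41-fold, and was past the threshold in 22 of 22 alternatives. Without Wnt9bKO 2 and DKO 3 the log2 fold change was -1.08 (adjusted p = 0.004653). In DKO it was -0.25 (SE 0.24, adjusted p = 0.4711) and in Rspo2KO 0.11 (SE 0.24, adjusted p = 0.9017).

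The genes with levels most like that of *Neurod4*, a search added after its values were seen, were led by another neurogenic bHLH gene. Over 11 libraries, the 10 highest Pearson correlations of log2 CPM with *Neurod4*, out of 11351 candidates, were those of *Neurog2* (0.96), *Vtn* (0.96), *D930028M14Rik* (0.96), *S100a11* (0.95), *Rnd2* (0.95), *Prmt8* (0.95), *Tmsb4x* (0.94), *Fgfr3* (0.94), *Nefl* (0.94), the light neurofilament, and *Zfp874a* (0.93). These values are descriptive, as the libraries share genotype. *Neurog2*, the determination factor of epibranchial neurons, was at 10.4 and 11.5 CPM in wt and at 11.3, 12.7 and 13.0 CPM in Rspo2KO. It was at 5.96, 4.29 and 7.80 CPM in Wnt9bKO and at 6.23, 12.6 and 10.1 CPM in DKO, so that DKO 1 was again the low library. *Neurog2* fell by 0.87 in Wnt9bKO (SE 0.26, adjusted p = 0.02053, edgeR), a call that was lost without Wnt9bKO 2 and DKO 3 (-0.68, adjusted p = 0.06815). It was also lost with the offset for GC content and length (-0.69, adjusted p = 0.05348).

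The 3 Wnt9bKO libraries and DKO 1 were also low for a gene that marks tissue behind the first arch. *Hoxa2*, which is expressed in the hindbrain and the second arch but not in first arch crest, was at 4.73 and 5.07 CPM in wt, at 0.160, 0.358 and 0 CPM (a count of 0 allows up to 0.180 CPM) in Wnt9bKO and at 1.12, 4.98 and 4.67 CPM in DKO. It was lower in Wnt9bKO than in wt (adjusted p = 0.0001375) and higher in DKO than in Wnt9bKO (adjusted p = 0.01315, edgeR). Of 15 hindbrain and motor genes, 11 were tested and 3 fell in Wnt9bKO (*Hoxa2*, *Hoxb1* and *Hoxb2*; 27.3%, below the 32.8% of all genes), with a summed level of 16.2 to 23.6 CPM against 20.03 to 31.5 CPM in DKO and 30.3 and 37.7 CPM in wt. The part of these markers in the *Neurod4* result was not tested. The log2 fold change of *Neurod4* in DKO against Wnt9bKO was 1.02 (SE 0.23, adjusted p = 0.1382). It was 0.82 to 1.34 when any 1 library was left out (adjusted p from 0.03269 to 0.4797) and 0.69 without Wnt9bKO 2 and DKO 3 (adjusted p = 0.574).

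**Figure D2:**
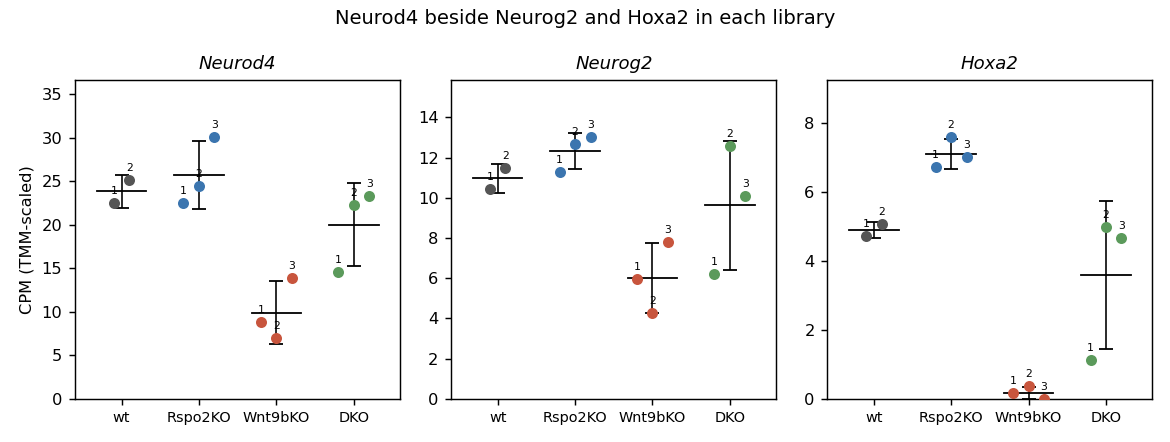
Levels in CPM (y axis, from 0) of *Neurod4*, *Neurog2* and *Hoxa2* in each library, by genotype (x axis). Points are numbered libraries, lines are means and bars are SD. The 3 Wnt9bKO libraries and DKO 1 are the 4 lowest libraries in each panel.

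*Pou4f1*, the POU factor of sensory neurons, was at 13.8 and 17.5 CPM in wt, at 21.7, 13.3 and 15.1 CPM in Rspo2KO, at 18.3, 9.48 and 17.4 CPM in Wnt9bKO and at 19.4, 18.4 and 21.8 CPM in DKO. Wnt9bKO 2 was the low library, and the other 2 Wnt9bKO libraries lay within or just above wt. The log2 fold change was -0.06 (SE 0.25, adjusted p = 0.8771) in Wnt9bKO, 0.08 (SE 0.25, adjusted p = 0.9342) in Rspo2KO and 0.34 (SE 0.25, adjusted p = 0.3459) in DKO, so no difference was detected with errors of this size. Without Wnt9bKO 2 and DKO 3 the Wnt9bKO value was 0.18 (adjusted p = 0.5456).

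The RNA-binding genes are markers of young neurons, and *Elavl3* shares 256 exon bases with *Gm49318* in the annotation. *Elavl3* was at 38.1 and 43.2 CPM in wt, at 65.2, 49.4 and 48.1 CPM in Rspo2KO, at 40.3, 32.1 and 35.6 CPM in Wnt9bKO and at 53.5, 52.1 and 47.5 CPM in DKO. All Rspo2KO and DKO libraries were above wt, yet neither difference passed the adjusted test. The log2 fold changes were 0.41 (SE 0.14, adjusted p = 0.2903) and 0.33 (SE 0.14, adjusted p = 0.1082, edgeR). The DKO difference passed in 2 of 22 alternatives. In Wnt9bKO the *Elavl3* value was -0.18 (SE 0.14, adjusted p = 0.368, edgeR). It passed in 2 of 22 alternatives, among them the offset for GC content and gene length (-0.33, adjusted p = 0.02683). *Elavl4* was at 60.0 and 52.8 CPM in wt, at 68.4, 58.8 and 73.0 CPM in Rspo2KO, at 58.1, 43.0 and 51.6 CPM in Wnt9bKO and at 75.4, 78.7 and 76.1 CPM in DKO. The DKO libraries had an SD of 1.72 CPM and were above every other library. *Elavl4* rose in DKO by 0.45 (SE 0.13, adjusted p = 0.02271, edgeR), or 1.36-fold, and was past the threshold in 16 of 22 alternatives. Those that missed it included leaving out wt 1, wt 2, DKO 1 or DKO 2 (adjusted p = 0.06064, 0.1944, 0.05031 and 0.06016).

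Among the cytoskeletal genes, *Tubb3*, the neuronal beta-tubulin, was at 304 and 334 CPM in wt, at 393, 372 and 397 CPM in Rspo2KO, at 243, 169 and 217 CPM in Wnt9bKO and at 287, 316 and 279 CPM in DKO. The Rspo2KO libraries were all above wt, the Wnt9bKO libraries all below it, and DKO overlapped wt. *Tubb3* fell in Wnt9bKO by 0.60 on the log2 scale (SE 0.13, adjusted p = 0.003563, edgeR), or 1.52-fold, and was past the threshold in 22 of 22 alternatives, with log2 fold changes from -0.72 to -0.41. It was also lower in DKO than in Rspo2KO by a log2 fold change of -0.40 (SE 0.12, adjusted p = 0.03309), and this difference passed in 13 of 22 alternatives. It was lost when any of the 3 Rspo2KO or 3 DKO libraries or Wnt9bKO 3 was left out (adjusted p from 0.05146 to 0.1086). Against wt the change was 0.28 in Rspo2KO (SE 0.14, adjusted p = 0.4329) and -0.12 in DKO (SE 0.13, adjusted p = 0.5528).

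*Dcx*, a microtubule-associated protein of migrating immature neurons, is encoded on the X chromosome and showed the largest rise of the members. It was at 44.3 and 65.8 CPM in wt, at 126, 76.0 and 92.4 CPM in Rspo2KO, at 93.9, 54.8 and 81.8 CPM in Wnt9bKO and at 121, 132 and 124 CPM in DKO. The Rspo2KO and DKO libraries were all above wt, whereas Wnt9bKO 2 lay between the wt libraries. In DKO, which like wt had high *Xist*, *Dcx* rose by 1.19 on the log2 scale (SE 0.23, adjusted p = 0.002164, edgeR), or 2.28-fold. It was past the threshold in 21 of 22 alternatives and missed it only without wt 1 (0.93, adjusted p = 0.05156). The log2 fold change was 0.82 in Rspo2KO (SE 0.23, adjusted p = 0.2213) and 0.48 in Wnt9bKO (SE 0.23, adjusted p = 0.1254). Without Wnt9bKO 2 and DKO 3 the Wnt9bKO value was 0.67 and passed the test (adjusted p = 0.03211), as it did without Wnt9bKO 2 alone (0.70, adjusted p = 0.02514).

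*Stmn2*, a tubulin-binding protein of growth cones, was at 35.6 and 45.4 CPM in wt, at 59.9, 54.9 and 60.4 CPM in Rspo2KO, at 47.5, 24.9 and 37.4 CPM in Wnt9bKO and at 59.6, 59.7 and 67.7 CPM in DKO. All Rspo2KO and DKO libraries were above wt, and the Wnt9bKO libraries lay on both sides of it. *Stmn2* rose in DKO by 0.62 on the log2 scale (SE 0.20, adjusted p = 0.03129, edgeR), or 1.53-fold, and was past the threshold in 14 of 22 alternatives. It missed it without either wt library or any DKO library (adjusted p from 0.05261 to 0.2603). In Rspo2KO the value was 0.52 (SE 0.20, adjusted p = 0.3112), and in Wnt9bKO it was -0.15 (SE 0.20, adjusted p = 0.5901), or 0.06 (adjusted p = 0.7832) without Wnt9bKO 2 and DKO 3.

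By comparison, the members were called as follows, where a call is an adjusted p below 0.05. The 3 comparisons with wt share the wt libraries, and their values are given side by side only. In Wnt9bKO, 2 of 9 members were called, both lower (*Neurod4* and *Tubb3*), with a median log2 fold change over the members of -0.14. Of all genes tested, 32.8% were called in this comparison and 16% were called lower, so the members' share was near the background. In DKO, 4 of 9 were called, all higher (*Dcx*, *Neurod1*, *Stmn2* and *Elavl4*), with a median of 0.45 against 0.01 over all genes. Here 27.5% of all genes were called and 14.3% were called higher. With an offset for GC content and gene length, 1975 genes were called higher and 3091 lower in DKO, against 2484 and 2276 without it. The 2 members then called were *Dcx* (0.92, adjusted p = 0.007692) and *Neurog1*, while *Elavl4* (adjusted p = 0.07603), *Stmn2* (0.07471) and *Neurod1* (0.05549) were not. The 4 DKO calls became 0 without wt 1, 1 without wt 2, DKO 1 or DKO 2, 2 without DKO 3 and 6 without Rspo2KO 1. The share of all genes called in these fits is not given here, so these counts cannot be set against it. All 3 DKO libraries were above both wt libraries for 7 of 9 members, against 29.5% of all genes.

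In Rspo2KO no member was called by edgeR, where 0.0346% of all genes were, although the estimates of all 9 members were above 0, with a median of 0.31. For 3 of 9 (*Elavl3*, *Stmn2* and *Dcx*) the unadjusted p was below 0.05 with a higher level, against 8.05% of all genes, and DESeq2 called 1 (*Dcx*), where it called 1.44% of the genes to which it gave an adjusted p. All Rspo2KO libraries were above wt for 4 of 9 (*Tubb3*, *Elavl3*, *Stmn2* and *Dcx*), against 17.2% of all genes.

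The fitted level of every member was higher in DKO than in Wnt9bKO, genotypes that by their labels have the loss of *Wnt9b* in common. Sex and genotype cannot be told apart here either. No member was called by edgeR, where 0.121% of all genes were, but 9 of 9 estimates were above 0 and the median log2 fold change was 0.54 against 0.00 over all genes. The unadjusted p was below 0.05 with a higher level in DKO for 7 of 9 members, against 3.62% of all genes, and DESeq2 called 4 (*Tubb3*, *Elavl4*, *Stmn2* and *Neurod4*), against 0.409% of its genes. All DKO libraries were above all Wnt9bKO libraries for 7 of 9 members, against 5.92% of all genes, the exceptions being *Neurog1* and *Neurod1*. The smallest adjusted p was that of *Elavl4* (0.59, SE 0.12, adjusted p = 0.08809, edgeR), and the call count was 2 without Wnt9bKO 1 and 1 without Wnt9bKO 3 or DKO 1. Without Wnt9bKO 2 and DKO 3, which go against their labels, the estimates ran from 0.08 (*Pou4f1*) to 0.69 (*Neurod4*) with a median of 0.47, and the smallest adjusted p was 0.3686 (*Elavl4*). In that fit 6 of 9 members had an unadjusted p below 0.05 with a higher level, against 3.18% of all genes, and 8 did not overlap, against 16.9% of all genes with 2 libraries a group. Between DKO and Rspo2KO, 1 of 9 members was called (*Tubb3*, lower), against 18.2% of all genes.

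The interaction, that is, the departure of DKO from the sum of the single mutant changes, was called for 0 of 9 members by edgeR and for 0.0635% of all genes. For *Neurod4* the interaction was 0.91 on the log2 scale (SE 0.33, adjusted p = 0.4348), the 1 member with an unadjusted p below 0.05, against 9.45% of all genes. DESeq2 called none.

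**Figure D3:**
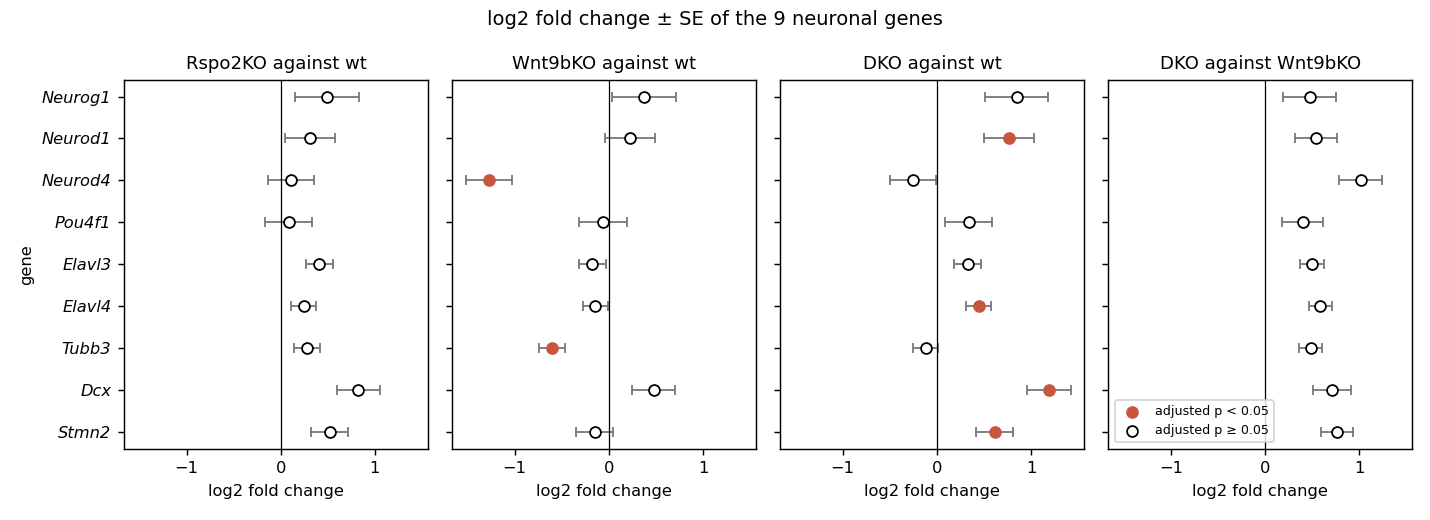
Log2 fold change (x axis) of each of the 9 genes (y axis) in 4 comparisons, with bars of 1 SE and filled points where the adjusted p is below 0.05. In Wnt9bKO, *Neurod4* (-1.27) and *Tubb3* (-0.60) lie to the left of 0, in DKO 4 filled points lie to the right, and in DKO against Wnt9bKO all 9 lie to the right without a call.

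Individual libraries carried much of the spread. Wnt9bKO 2 was the lowest of its genotype for 9 of 9 members and the lowest of all 11 libraries for 7, the exceptions being *Dcx* and *Neurog1*, which were lowest in wt 1. The summed level of the 9 genes was 353 CPM in Wnt9bKO 2 against 477 and 524 CPM in the other Wnt9bKO libraries, 530 and 599 CPM in wt, 664 to 780 CPM in Rspo2KO and 654 to 702 CPM in DKO. wt 1 was below wt 2 for 8 of 9 members. Rspo2KO 1 was the highest of its genotype for 5 members, while no DKO library was the highest of its genotype for more than 4. Across the 11 libraries, all 36 pairs of members had a Pearson correlation of log2 CPM above 0, with a median of 0.65 and a range from 0.03 to 0.89. The median was 0.48 for the 8 pairs with *Neurod4* and 0.71 for the other 28.

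**Figure D4:**
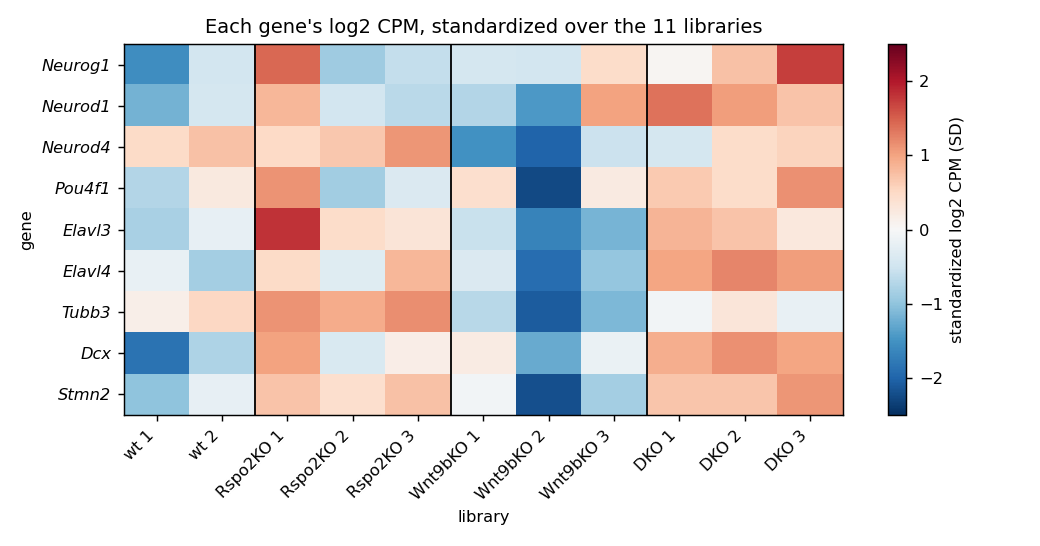
Log2 CPM of each gene (y axis) in each library (x axis), standardized over the 11 libraries so that color gives the distance from the gene's mean in SD. The Wnt9bKO 2 column is low for all 9 genes, and *Neurod4* is low in all Wnt9bKO libraries and in DKO 1.

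Genes were also compared with the mean of the members' standardized levels, and those with the most similar pattern included known neuronal genes. Of 11351 candidates, the highest Pearson correlation over 11 libraries was that of *Nhlh1* (0.96), a bHLH gene of early neurons, followed by *Pak7* (0.95), *Ebf2* (0.93), *Akap6* (0.92), *Garem2* (0.92), *Mtus2* (0.90), *Ttll7* (0.90), *Nefm* (0.90), the medium neurofilament, *Snap91* (0.90) and *Rhbdl3* (0.89). *Nhlh1* was at 12.3 and 15.8 CPM in wt, at 8.88 to 15.9 CPM in Wnt9bKO, at 15.7 to 21.6 CPM in Rspo2KO and at 18.9 to 22.2 CPM in DKO.

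Other neuronal genes included some that rose and some that fell. Of 40 further pan-neuronal genes, all tested, edgeR called 0 in Rspo2KO. There 18 of the 40 had an unadjusted p below 0.05, against 11.9% of all genes. In Wnt9bKO 5 rose and 8 fell, and in DKO 15 rose and 3 fell. The share called was thus 32.5% in Wnt9bKO, near the 32.8% of all genes, and 45% in DKO against 27.5%. Cytoskeletal genes were among both those that rose and those that fell. *Tubb2b*, another neuronal tubulin, was at 474 and 550 CPM in wt and at 193 to 200 CPM in Wnt9bKO, and fell by 1.38 there (SE 0.12, adjusted p = 2.475e-06) and by 0.90 in DKO (SE 0.12, adjusted p = 9.686e-05). *Map1b*, a microtubule-associated protein, was at 323 and 363 CPM in wt and at 737 to 811 CPM in Wnt9bKO, and rose by 1.17 (SE 0.19, adjusted p = 0.0004686) and by 1.38 in DKO (SE 0.19, adjusted p = 0.0001867). *Stmn4* (-1.31), *Mllt11* (-0.86) and *Tagln3* (-0.80) fell in Wnt9bKO, and *Scg3* (1.03), a secretory granule protein, *Crmp1* (1.26) and *Ebf1* (0.67) rose in DKO. With the offset for GC content and length, 13 of the 40 were called lower in Wnt9bKO, and 13 higher in DKO. Of all 17317 genes, 3370 were then called lower in Wnt9bKO and 1975 higher in DKO.

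Of 25 sensory ganglion genes, 23 were tested, and 2 rose and 3 fell in Wnt9bKO while 3 rose and 1 fell in DKO. These shares, 21.7% and 17.4%, were below those of all genes. Those that fell in Wnt9bKO were *Neurog2*, *Tlx1* (-1.31) and *P2rx3* (-0.66), and *Tlx1* fell in DKO too (-1.47, SE 0.29, adjusted p = 0.00243, edgeR). *Runx1* (1.14) and *Eya1* (0.50) rose in Wnt9bKO, and both rose in DKO with the neurotrophin receptor *Ntrk2* (0.62, SE 0.16, adjusted p = 0.01064). *Isl1* was at 52.5 and 51.1 CPM in wt and at 42.6, 28.4 and 45.3 CPM in Wnt9bKO (-0.42, SE 0.16, adjusted p = 0.06358). Without Wnt9bKO 2 and DKO 3, *Tlx1* alone of the 3 passed in Wnt9bKO (-1.61, adjusted p = 0.002038), with *Neurog2* at -0.68 (adjusted p = 0.06815) and *P2rx3* at -0.54 (adjusted p = 0.09375). In that fit *Isl1* was at -0.24 (adjusted p = 0.1598). With the offset for GC content and length, *Isl1* was called lower in Wnt9bKO (-0.44, adjusted p = 0.04518), and *Tlx1* still was (-1.15, adjusted p = 0.009833). *Neurog2* (-0.69, adjusted p = 0.05348) and *P2rx3* (-0.58, adjusted p = 0.06163) were not. With the offset 0 of these genes rose in DKO, where 1975 of all 17317 genes were called higher.

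Of 23 proneural and Notch pathway genes, 21 were tested, and 5 rose and 5 fell in Wnt9bKO while 5 rose and 1 fell in DKO, or 47.6% and 28.6% of those tested. *Hes1*, a Notch target that represses proneural genes, was at 18.9 and 21.1 CPM in wt, at 31.4 to 41.0 CPM in Wnt9bKO and at 32.4 to 39.7 CPM in DKO, and rose by 0.82 (SE 0.15, adjusted p = 0.000925) and 0.85 (SE 0.15, adjusted p = 0.001001). *Dll1*, a Notch ligand of newly formed neurons, rose in DKO by 0.80 (SE 0.21, adjusted p = 0.01168), and *Hes6* (-0.52) and *Btg2* (-0.64), genes of neuronal precursors leaving the cell cycle, fell in Wnt9bKO. Without Wnt9bKO 2 and DKO 3, 8 of these genes rose in DKO, where 2246 of all 17135 genes tested were called higher. In Rspo2KO none of the sensory ganglion or proneural genes was called by edgeR. There 4 of 23 and 5 of 21 had an unadjusted p below 0.05, against 11.9% of all genes.

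Markers of other cell types that the explants could hold are given beside the 32.8% of all genes called in Wnt9bKO and the 27.5% in DKO. Of 13 forebrain and eye genes, 9 rose in Wnt9bKO and 6 in DKO (69.2% and 46.2%), with a summed level of 168 to 330 CPM in Wnt9bKO, 184 to 236 CPM in DKO and 126 and 143 CPM in wt. Of 11 olfactory placode genes tested, 5 and 4 rose (45.5% and 36.4%). The 7 erythroid genes summed to 1789 to 2370 CPM in Wnt9bKO and 1742 to 2848 CPM in DKO, against 4454 to 5761 CPM in Rspo2KO and 3942 and 4898 CPM in wt, and 3 and 6 of them fell (42.9% and 85.7%). Of 14 glial and neural crest genes, 2 rose and 4 fell in Wnt9bKO (42.9%) and 1 rose and 2 fell in DKO (21.4%, below all genes). Of 13 face mesenchyme genes, 2 rose in Wnt9bKO and 1 fell in DKO, shares of 15.4% and 7.69% that were below those of all genes, and the mesenchyme sum was 1061 to 2050 CPM in Wnt9bKO and 1308 to 1421 CPM in DKO against 1360 and 1433 CPM in wt. Of 10 surface epithelium genes 1 rose and 1 fell in each (20%, below all genes). Of 6 endothelial genes 2 rose and 1 fell in each (50%). Of 5 muscle genes tested 2 fell in Wnt9bKO and 3 in DKO (40% and 60%). The muscle list summed to 59.7 CPM in wt 1 but 23.6 CPM in wt 2. It summed to 15.5 to 24.7 CPM in Wnt9bKO and 16.5 to 18.3 CPM in DKO. *Actc1* and *Myl7* were at 24.5 and 9.65 CPM in wt 1, against 4.95 and 1.93 CPM in wt 2. The part of wt 1 in the muscle calls was not tested. The part of these cell types in the differences of the neuronal genes was not tested.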

How the data were processed

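RNA of facial processes at E10.5 was analysed in 11 libraries (2 wt, 3 each of Rspo2KO, Wnt9bKO and DKO), grouped by GEO's labels. The study's methods state 3 samples per genotype. The authors deposited raw counts, the whole number of reads per Ensembl gene in each library. By the study's methods and the submitters' processing notes, the authors trimmed 50-base single-end reads with Cutadapt, discarded those under 30 bases, used STAR for mapping to GRCm38 and HTSeq for counting, and named DESeq2 for their own comparisons. Versions and the strand setting are not given in the sources used here.

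Of 38561 genes, 36639 matched the GENCODE vM21 annotation (GRCm38), which gave names, exon lengths and GC content. edgeR 4.0.16 in R 4.3.3 filtered genes (filterByExpr), scaled totals by TMM and tested genotypes by two-sided quasi-likelihood, with all 11 libraries in the model. Benjamini-Hochberg adjustment ran over 17317 genes, and the SE is the absolute log2 fold change divided by the square root of F. Levels are TMM-scaled CPM. The smallest library had 11136166 counts, where 3 counts are 0.268 CPM (counting error only). Alternatives were DESeq2 1.42.0, RLE and upper-quartile factors, other low-count filters, only the groups compared, a block for the replicate number, an offset from a loess fit (span 0.3) to GC content and length, fold thresholds of 1.5, autosomal protein-coding genes with the members kept, and leaving out libraries. The list counts without Wnt9bKO 2 and DKO 3 and with the offset, and the overlap of DKO and Wnt9bKO without those libraries, were added once the data had been seen. Simulated data were used to test the model. Figures used Python 3.11.15 and matplotlib 3.10.9.

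The 9 members and the lists of pan-neuronal, sensory ganglion, proneural and Notch, and other cell type genes were chosen with earlier results of these data known. From the neuronal lists the 5 genes with the smallest p per comparison with wt were to be named, from other lists the 3 with the highest mean CPM, and the 10 genes with a mean of at least 5 CPM most like the members. The genes like *Neurod4* were named after their values were seen, as were *Hoxb1*, *Hoxb2*, *Mnx1*, *Chat*, *Isl1*, *Isl2*, *Lhx3* and *Lhx4*. Promoter sequences are from RefSeq (GRCm38.p6). No protein sequence was used here, and 1 gene of the lists is not reported here.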

Additional observations from a re-analysis of the deposited data

How the results depend on the processing

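The Wnt9bKO calls (*Neurod4* and *Tubb3*) were past the threshold under each of 22 alternatives, where the number of members called was 2 or 3. In Rspo2KO, where edgeR called 0 members, DESeq2 called 1, no low-count filter 2, and an unadjusted p with over 1.5-fold change 1. In DKO against wt the 4 calls became 2 with the replicate block (*Elavl4* and *Dcx*) and 2 with the loess offset (*Dcx* and *Neurog1*). *Neurog1*, which the main fit did not call, was also called without the filter, with only the groups compared and without Rspo2KO 1. The count was 1 with the offset and the block (*Dcx*), 3 with an adjusted p and over 1.5-fold, and 5 without the filter. It was 6 with only the groups compared and 0 to 6 when 1 library was left out. In DKO against Wnt9bKO the count of 0 became 4 with DESeq2, 6 without the filter, 2 with the replicate block, 1 with the offset, 4 with an unadjusted p and over 1.5-fold, and 0 to 2 when 1 library was left out. In DKO against Rspo2KO the count of 1 became 3 without the filter, 0 with the offset, 0 with the offset and the block, 0 under either 1.5-fold rule, and 0 to 1 when 1 library was left out. The interaction had 1 call without the filter. The cause of these changes was not tested, and the share of all genes called was not set beside these counts. No called value changed sign, and 29 values of uncalled members did.

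Deviations of same-numbered libraries of different genotypes had small correlations (3 of 15 pairs over 0.1, range -0.105 to 0.236). They ran from -0.105 to 0.025 for pairs with wt and from 0.041 to 0.236 among the mutants. Differently numbered libraries were not compared, and the replicate block rests on numbers alone. With 2 wt libraries and 3 per mutant, errors of about 0.25 on the log2 scale for *Neurod4*, *Pou4f1* and *Neurod1* limit what could be detected, and *Neurog1*, with 29 to 123 counts, had the largest error.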
